A study of Mus musculus with 4 samples.

Results

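Pleiotrophin and midkine are small secreted growth factors that bind heparin, and the syndecans and glypicans are the cell-surface proteoglycans whose heparan sulfate chains hold such factors near their receptors. The 10 genes described here were Ptn and Mdk, the syndecans Sdc1, Sdc2, Sdc3 and Sdc4, and the glypicans Gpc1, Gpc3, Gpc4 and Gpc6. The set was chosen on the signal difference between the 2 kinds of cell compared below, as an earlier analysis of the same arrays had shown it. Its members were taken by gene name from the non-control probes of the arrays, which gave 14 probes for 10 of the 34821 gene and transcript names on the array. A proteoglycan is a core protein that carries long sugar chains. Syndecans span the membrane and signal through a short cytoplasmic tail, whereas glypicans are tethered to the outer leaflet by a lipid anchor. Enzymes of the Golgi build and sulfate the chains, and extracellular sulfatases trim them afterwards, which changes which growth factors can bind. In fibroblasts these molecules take part in growth factor signalling and adhesion to the matrix.

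The arrays measured messenger RNA in NIH3T3 cells, an immortalised mouse embryonic fibroblast line, that expressed either the normal (wild-type) form of the growth factor receptor EGFR or a mutant with a deletion. Each group had 2 arrays, both groups shared the NIH3T3 background, and the labels name no drug treatment and describe the cells as being at steady state. The labels do not state which part of the receptor is deleted, from which species it comes, the vector or the number of clones, and no untransfected cells were analysed here. Separate cDNA preparations are mentioned but not separate cultures, so p-values reflect only how far these arrays vary, and that variation may be technical. In such bulk RNA, fewer cells of a type and less RNA per cell cannot be told apart.

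On the 4 arrays 42.9% to 46.9% of probes were well above background, and none had a saturated spot. Their upper quartile of signal ran from 327 to 366.6 intensity units. The slide was shared by all 4 arrays but each group had its own column of it, so column and group cannot be told apart. The fibroblast identity of the cells was checked on 10 markers, and all 10, among them Col1a1, Col1a2, Vim and Twist1, were well above background on all 4 arrays. Their summed signal was 660600 and 724300 intensity units in wild-type cells and 451600 and 501000 in deletion-mutant cells. The lower sum was not shared by every marker. Col1a2, among the brightest, read 171662.9 and 191696.9 units against 87532.8 and 98350.5. The values of Vim (98490.2 and 111230.2 against 109773.9 and 124868.4) and of Twist1 interleaved between the groups. Of 7 epithelial markers, Epcam, Cdh1, Krt18 and Cldn4 were not well above background on any array, Krt14 was on all 4 and Krt5 on 1 of each group. Krt8 was above background in deletion-mutant cells alone (28.5 and 15.1 units against 81.5 and 82.7), and the summed signal of the list was 167 and 143.2 units in wild-type and 213.8 and 227.1 in deletion-mutant cells. Of 4 leukocyte markers, Cd3e and Cd68 were above background on all 4 arrays, Cd79a on both wild-type arrays and Ptprc on none, with sums of 737.4 and 825.2 against 679 and 700.2. Of 5 endothelial markers, Kdr and Pecam1 were above background on all 4 arrays and Cdh5, Tek and Vwf on none, with sums of 2456 and 2409 against 2163 and 2371. None of 4 skeletal muscle markers was above background on any array. The summed signal of 5 neural and glial markers was 10080 and 10690 units in wild-type and 6762 and 6573 in deletion-mutant cells, with Sox10 not above background on any array. Snap25 made up most of that sum and was lower in deletion-mutant cells, as was Gfap, whereas Tubb3 (116.3 and 126.2 units against 294 and 273.4) was higher. The part of these shifts in the values that follow was not tested.

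The members fell into those that were lower in deletion-mutant cells (Ptn, Gpc4 and Gpc6), those that were higher (Gpc1, Sdc3, Sdc1 and Sdc2) and those that did not pass the threshold (Mdk and Sdc4). Gpc3 was not measurable in this comparison. The threshold was an adjusted p of 0.05 by limma across all 18093 features, where a feature is a gene represented by its brightest probe or an unnamed transcript. Of the 9 members with a probe that passed the background filter, 7 passed the threshold, beside 58.8% of all features. The members were chosen with results of this comparison known. Their differences are therefore given as a description without p-values, and nothing is read from the count. By direction, 4 members were higher, beside 34.6% of all features, and 3 were lower, beside 24.2%. Sdc3 and Gpc1 were at least 2-fold higher (5.94% of all features were) and Ptn, Gpc4 and Gpc6 at least 2-fold lower by the fit (7.46% were), and 13.4% of all features were past 2-fold in either direction. The median log2 difference of the 9 members was 0.14, and that of all features was 0.066. Gpc6 passed the filter through the wild-type group alone.

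**Figure D1:**
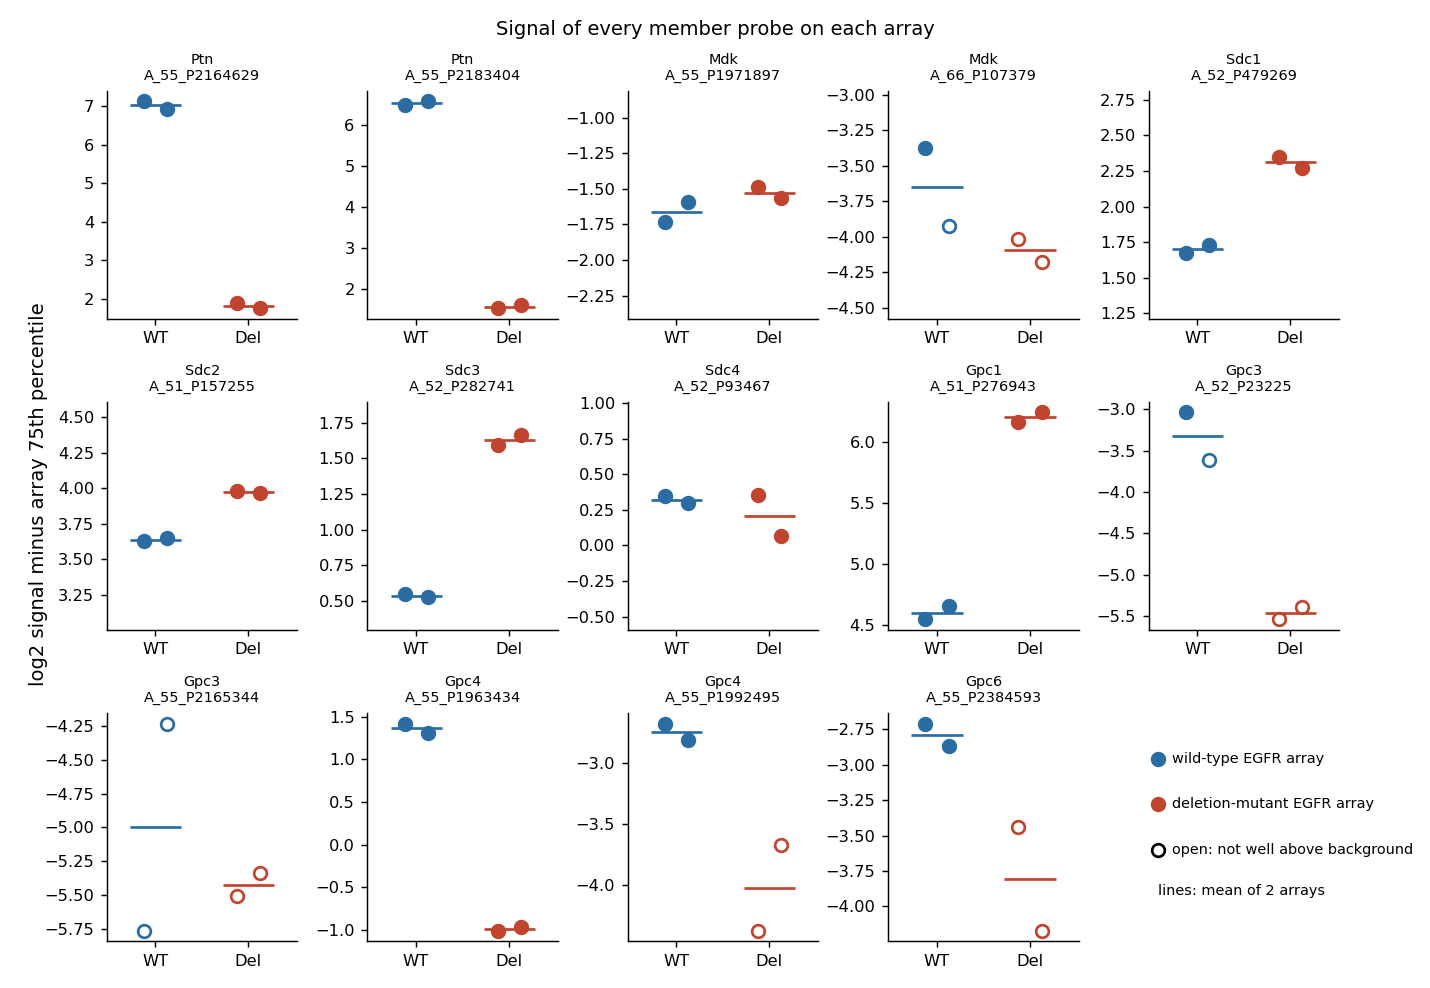
Log2 signal minus the array's 75th percentile (vertical axis, scaled for each panel) of all 14 member probes on the 2 wild-type (WT) and 2 deletion-mutant (Del) arrays, with filled points well above background, open points not, and lines at the mean of 2 arrays. The Ptn probes differ by -5.19 and -4.96 between groups, Sdc4 overlaps between groups, and of the 2 Gpc3 probes only 1 is filled, on 1 wild-type array.

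Ptn encodes pleiotrophin, a lysine-rich factor of developing brain, bone and vessels that binds the sugar chains of proteoglycans. Its brightest probe, at chromosome 6, 36691376 to 36691435 (mm9, minus strand), gave 48070 and 44550 intensity units in wild-type cells and 1222 and 1192 in deletion-mutant cells. The groups lay far apart on this probe, and all 4 signals were well above background.

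The probe is printed because the largest difference among the members rests on it. Its letters lie within the coding part of the transcript.
Ptn probe: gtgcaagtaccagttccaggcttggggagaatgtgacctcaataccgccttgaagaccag

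On the log2 scale, relative to each array's 75th percentile, Ptn averaged 7.02 ± 0.141 (SD, n = 2) in wild-type cells and 1.83 ± 0.101 in those with the deletion mutant. It was 36.6-fold lower (log2 difference -5.19 ± 0.101 SE), the 20th largest fitted fall among 18093 features. The second Ptn probe lay 25653 bases away, at 36665663 to 36665722, and read 31030 and 35130 units against 948.4 and 1075. It gave a log2 difference of -4.96, a 31.2-fold lower level, and its groups did not overlap either. Expression of Ptn was reduced and not abolished, since both probes stayed above background on each deletion-mutant array.

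Mdk, which encodes midkine, the only close relative of pleiotrophin, did not follow it. Its brighter probe, at chromosome 2, 91769993 to 91770052 (mm9, minus strand), read 103.6 and 121.5 intensity units in wild-type and 116.4 and 119.2 in deletion-mutant cells. These signals were low but above background, and the unscaled values of the groups interleaved. After scaling they did not overlap, with log2 values of -1.73 and -1.59 in wild-type and -1.49 and -1.56 in deletion-mutant cells. The log2 difference was 0.14 ± 0.077 SE, which did not pass. Its sign depended on the scaling: it was -0.06 with the 75th percentile of the detected probes, and it was 0.28 after quantile normalization and 0.32 when arrays were scaled to their medians, both past the threshold.

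A second Mdk probe at 91770245 to 91771006 spans more of the genome than its 60 bases. It is printed with the stop codon of its reading frame in capitals, to show that it reaches the end of the coding sequence, and it was above background on 1 wild-type array only.
Mdk probe: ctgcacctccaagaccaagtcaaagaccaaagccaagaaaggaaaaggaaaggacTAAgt

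It read 33.24 and 24.1 units in wild-type and 20.24 and 19.48 in deletion-mutant cells, all close to the limit of detection, and was not kept. Midkine was thus represented by 1 probe.

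Among the syndecans, 3 of 4 were higher in deletion-mutant cells, beside 34.6% of all features, and the fourth, Sdc4, did not pass. Nothing is read from this count either. Sdc3, a syndecan best known from neurons and muscle precursors, had the largest difference. Its probe, at chromosome 4, 130382015 to 130382074 (mm9), read 502.9 and 527.3 intensity units in wild-type and 985.8 and 1118 in deletion-mutant cells. The groups did not overlap, and the arrays within a group lay 0.021 and 0.076 log2 units apart. Sdc3 was 2.14-fold higher (log2 difference 1.09 ± 0.060 SE).

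Sdc1, the main syndecan of epithelia and plasma cells, read 1100 and 1215 units in wild-type and 1667 and 1698 in deletion-mutant cells (chromosome 12, 8799383 to 8799442, mm9). Both deletion-mutant arrays were above both wild-type arrays, a 1.52-fold difference (0.61 ± 0.063, log2). Sdc2, the syndecan typical of fibroblasts and other mesenchymal cells, read 4259 and 4591 units in wild-type and 5170 and 5514 in deletion-mutant cells (chromosome 15, 32964204 to 32964263). The difference was 1.26-fold (0.34 ± 0.055, log2), small beside the other members that passed although the arrays of each group agreed within 0.02 log2 units. Sdc2 no longer passed under quantile normalization (0.10, log2), with the percentile of the detected probes (0.15) or without a background filter (0.34).

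Sdc4 encodes the syndecan of focal adhesions, where it acts beside integrins as a receptor for fibronectin. It read 438 and 449.5 units in wild-type and 417.2 and 367.5 in deletion-mutant cells (chromosome 2, 164251211 to 164251270, mm9). After scaling, the first deletion-mutant array (0.351, log2) lay above both wild-type arrays (0.346 and 0.294) and the second (0.06) lay below them, so that the groups overlapped. The log2 difference of -0.11 ± 0.115 SE was no larger than its error, and its sign turned to 0.07 under median scaling and to 0.03 without the second deletion-mutant array.

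The glypicans split in both directions. Gpc1, the glypican most widely expressed in cell lines and a co-receptor for fibroblast growth factors, read 8064 and 9247 intensity units in wild-type and 23500 and 26670 in deletion-mutant cells (chromosome 1, 94756711 to 94756770, mm9). Neither deletion-mutant array came near the wild-type values. Gpc1 was 3.04-fold higher (log2 mean 4.60 ± 0.077 SD against 6.21 ± 0.054, n = 2 each, difference 1.60 ± 0.071 SE). This was the largest fitted rise among the 9 tested members and the 345th among all features.

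Gpc4, a glypican of embryonic and mesenchymal tissue that also binds fibroblast growth factors and Wnt proteins, went the other way. Its brighter probe, at chromosome X, 49406560 to 49406619 (mm9, minus strand), read 922.2 and 905.6 units in wild-type and 162.7 and 180.6 in deletion-mutant cells. Both deletion-mutant values lay far below the wild-type ones and still above background. Gpc4 was 5.09-fold lower (log2 difference -2.35 ± 0.069 SE), the 298th largest fitted fall.

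A dimmer Gpc4 probe, 400 bases away, read 53.68 and 51.91 units in wild-type and 15.85 and 27.64 in deletion-mutant cells, where it was not well above background. Only a lower bound could be given for it: the level was at least 1.57-fold lower. Such a bound compares the brighter group's mean with a floor for the dimmer one. The floor on an array was the lowest signal of any probe well above background there, or the probe's own signal where that was higher. Averaging the 2 Gpc4 probes gave a log2 difference of -1.81.

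Gpc6, another glypican of mesenchymal tissue, was dim. It read 52.67 and 50.15 units in wild-type cells, and its 30.09 and 19.55 in deletion-mutant cells were not well above background (chromosome 14, 118375311 to 118375370, mm9). The level was at least 1.49-fold lower, where the fitted log2 means were -2.79 ± 0.113 (SD, n = 2) and -3.81 ± 0.515. The spread of the deletion-mutant arrays was wide, and Gpc6 no longer passed without either wild-type array, under quantile normalization, with normexp background correction (-0.28, log2) or without a background filter.

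Gpc3, a glypican of fetal tissue that restrains growth, was at or near background. Its main probe, at chromosome X, 49625740 to 49625799 (mm9, minus strand), read 42.01 and 29.91 units in wild-type cells, of which the first was well above background, and 7.01 and 8.354 in deletion-mutant cells. A second probe, 115092 bases away, read 6.357 and 19.49 units in wild-type and 7.213 and 8.696 in deletion-mutant cells and was not well above background on any array. Neither probe was kept, and no fold is given for Gpc3 in the main comparison.

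**Figure D2:**
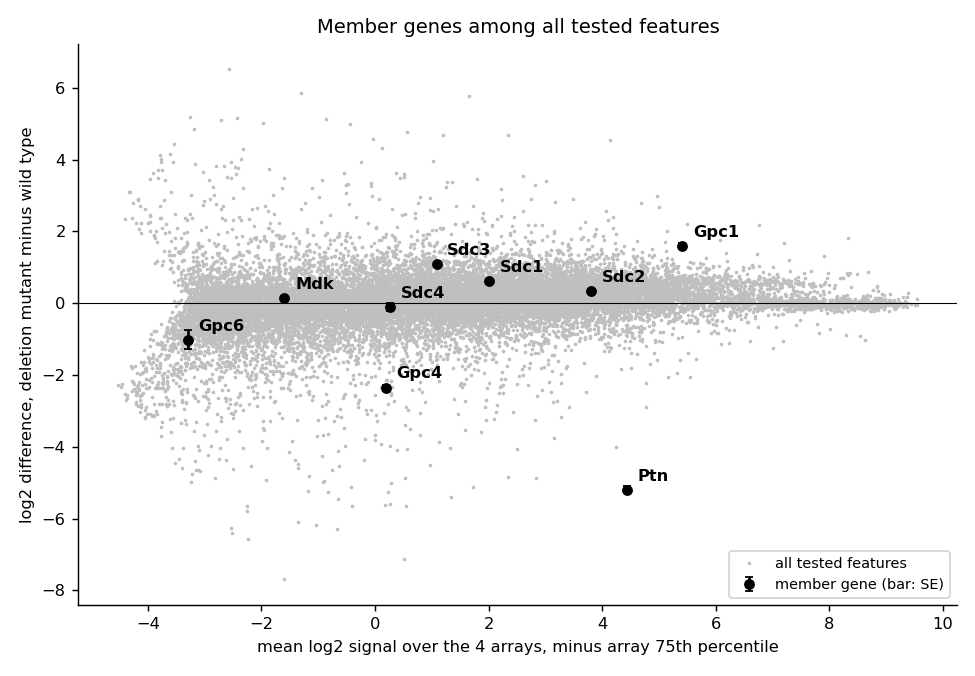
Mean log2 signal over the 4 arrays (horizontal axis) against the log2 difference between deletion-mutant and wild-type cells (vertical axis) for all 18093 tested features in grey and the 9 tested members in black, with bars for the standard error. Ptn lies at -5.19, Gpc4 at -2.35 and Gpc1 at 1.60, while Mdk and Sdc4 lie near 0.

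For the members with the largest fall and rise, the features with the most similar pattern were found by the distance between their 4 values, each centred on its own mean, among 12010 other named features above background on all 4 arrays. Since there are only 2 groups, likeness means a difference of nearly the same size. Nearest to Ptn were Asb4, a substrate receptor of a ubiquitin ligase (distance 0.116 log2 units, difference -5.11), the complement protease gene C1s (0.172, -5.13) and thrombospondin 1, Thbs1 (0.213, -5.01). The predicted gene Gm5077 (-5.39) and the myosin light chain gene Myl9 (-5.27) came next. Nearest to Gpc1 were Ttll5, which modifies tubulin (distance 0.028, difference 1.59), Rai14 (0.033, 1.59) and the mitochondrial nucleotide carrier gene Slc25a33 (0.044, 1.64), followed by Cenpv (1.64) and Sertad4 (1.55).

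Heparan sulfate chains are built on the core proteins by a series of Golgi enzymes. The synthesis list also held genes that make or transport the sugar and sulfate donors, and 22 of its 30 genes were measured. Of these, 11 rose, 2 fell and 9 did not pass by limma, which is 59.1% changed beside 58.8% of all features. The share that rose was 50%, beside 34.6% of all features, and the list's median log2 difference was 0.29, beside 0.066. None of the 11 rose as much as 2-fold in the main fit, although Hs2st1 was past 2-fold under median scaling (log2 difference 1.11). This list and those below were chosen with earlier results of these data known. Their shares, medians and adjusted p-values are therefore a description. The split became 18 and 2 with arrays scaled to their medians, 9 and 3 after quantile normalization, and 8 and 4 with the percentile of the detected probes.

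Hs2st1, which adds the 2-O-sulfate group, had the largest rise, at 1.90-fold (log2 difference 0.93 ± 0.067 SE, limma adjusted p = 0.00113). Its scaled log2 values, 1.31 and 1.20 in wild-type and 2.17 and 2.20 in deletion-mutant cells, did not overlap. B3galt6, an enzyme of the linker between core protein and chain, rose 1.62-fold (adjusted p = 0.00222). The polymerase gene Ext1 rose by 0.26 (adjusted p = 0.0344), whereas its partner Ext2, at 0.16, did not pass (adjusted p = 0.0885).

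The 2 genes that fell both act in sulfation. Papss2, which makes the sulfate donor used by all sulfotransferases, fell 2.95-fold (log2 difference -1.56 ± 0.060 SE, limma adjusted p = 0.000372), while its relative Papss1 rose by 0.35 (adjusted p = 0.00928). The 6-O-sulfotransferase gene Hs6st2 fell 1.88-fold (-0.91 ± 0.054, adjusted p = 0.000779), and its relative Hs6st1 rose by 0.51 (adjusted p = 0.00774). In both of these enzyme pairs the genes moved in opposite directions. Papss2 and Hs6st2 also fell under each scaling tried, and the rises of Papss1, Hs6st1 and Ext1 were not followed across scalings.

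**Figure D3:**
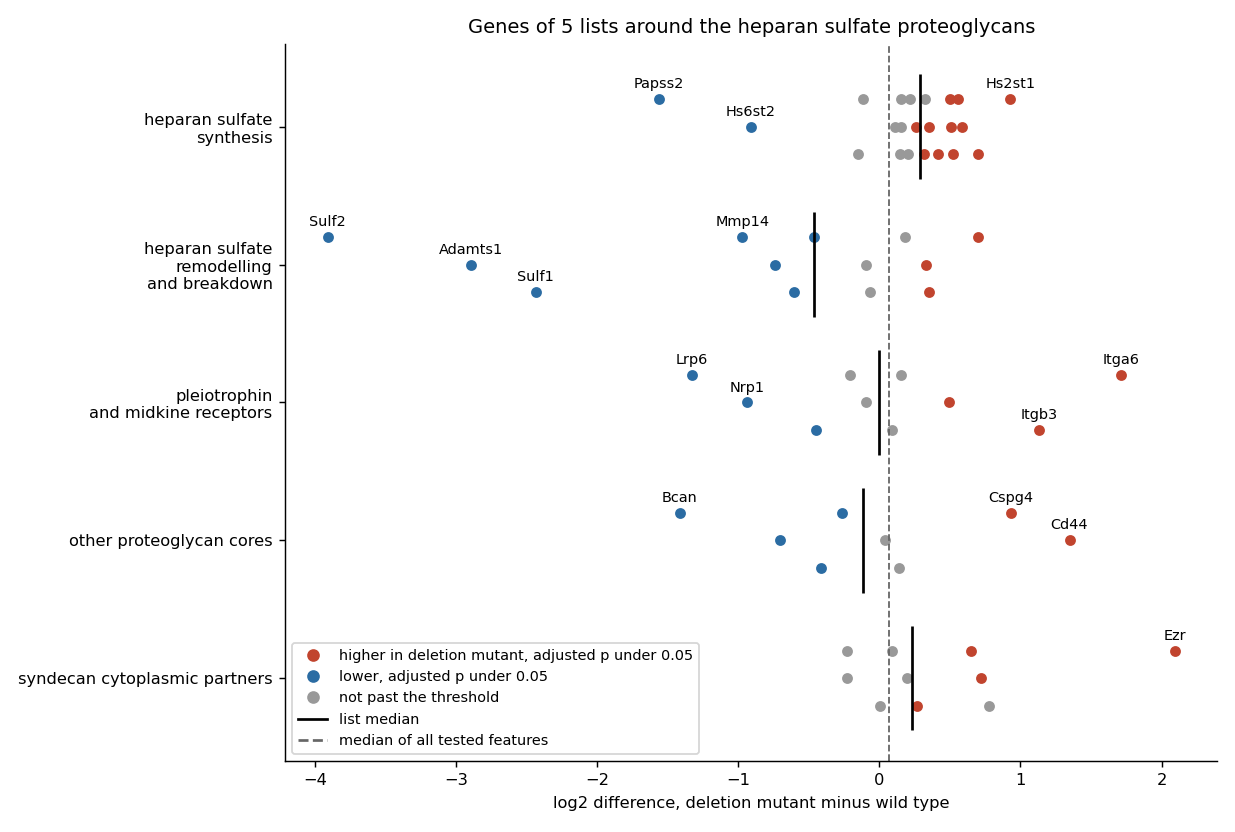
Log2 difference between deletion-mutant and wild-type cells (horizontal axis) for the measured genes of 5 lists, coloured by direction where adjusted p was under 0.05 and grey otherwise, with black lines at list medians and a dashed line at the median of all features. Sulf2, Adamts1 and Sulf1 lie between -3.91 and -2.43, and no synthesis gene rose by a full log2 unit.

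Of the enzymes that trim, cleave or degrade the chains and cores, 7 of 13 measured genes fell, 3 rose and 3 did not pass by limma. The share lower was 53.8%, beside 24.2% of all features, and the list's median was -0.46, beside 0.066. Between 7 and 9 genes were lower under the other scalings, and the number that rose was 4 under median scaling and 1 under each of the other two scalings. Hpse, Hpse2 and Gpld1 had no probe above the filter.

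The list holds the 2 extracellular sulfatases that remove 6-O-sulfate groups from finished chains, and both fell. Sulf2 had scaled log2 values of 2.02 and 2.11 in wild-type and -1.98 and -1.71 in deletion-mutant cells, which is 15-fold lower (-3.91 ± 0.114 SE, limma adjusted p = 0.000248). Sulf1 had -0.71 and -0.56 in wild-type and -3.03 and -3.11 in deletion-mutant cells, which is 5.40-fold lower (-2.43 ± 0.082, adjusted p = 0.000302). Neither gene's groups overlapped, and every Sulf1 and Sulf2 signal was above background. The Sulf1 signals of the deletion-mutant arrays were close to the lowest signals well above background there (-3.52 and -3.30, log2). The size of its fall is therefore uncertain.

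The proteases listed for releasing syndecan ectodomains were lower or did not pass, and other such proteases were not looked at. Adamts1 fell 7.43-fold (limma adjusted p = 0.000177) and the membrane protease gene Mmp14 fell 1.96-fold (adjusted p = 0.000862), while Adam17 was at -0.09 (adjusted p = 0.318). The lysosomal genes were mixed. Idua (-0.74) and Ids (-0.61) fell, and Gusb rose by 0.33 on the log2 scale (adjusted p = 0.00886). Sgsh rose 1.62-fold on its brightest probe (adjusted p = 0.00343), but its other kept probe gave -0.29. Notum, a lipase that inactivates Wnt proteins and was listed for its action on glypicans, rose 1.27-fold (adjusted p = 0.00999). Gusb and Notum did not pass under quantile normalization, with the percentile of the detected probes or without a background filter, and each lost its call without 1 wild-type array (Gusb without the first, adjusted p = 0.0527, and Notum without the second, 0.0546).

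Reported receptors of pleiotrophin and midkine changed in both directions, with 3 of 10 measured genes higher, 3 lower and 4 not past the threshold. That is 60% changed, beside 58.8% of all features, and the median was -0.002, beside 0.066. The integrin chain gene Itga6 rose 3.28-fold (limma adjusted p = 0.00044), although its second kept probe gave a smaller log2 difference (0.61 against 1.71). Itgb3, the beta chain that pairs with the alpha-v integrin, rose 2.20-fold (adjusted p = 0.000708), and the nucleolin gene Ncl rose 1.41-fold (adjusted p = 0.00333). Lrp6, a Wnt co-receptor, fell 2.51-fold (adjusted p = 0.0017), the semaphorin and VEGF co-receptor gene Nrp1 fell 1.91-fold (adjusted p = 0.00295) and the endocytic receptor gene Lrp1 fell 1.36-fold (adjusted p = 0.00433). The phosphatase Ptprz1, the best described pleiotrophin receptor, and the kinases Alk and Ltk had no probe above the filter, and Itga4 had none either. The related phosphatase gene Ptprs was measured and differed by -0.10 on its brightest probe (adjusted p = 0.232), but its other kept probe gave -0.75. Under quantile normalization, and with the percentile of the detected probes, 5 genes were lower and 3 higher, and under median scaling 3 were lower and 5 higher.

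Other proteoglycan core genes also went both ways, with 2 of 8 higher, 4 lower and 2 not past the threshold (25% higher and 50% lower, beside 34.6% and 24.2% of all features). That is 75% changed, beside 58.8%, and the median was -0.11, beside 0.066. Under median scaling 4 were higher and 3 lower. Cd44, the hyaluronan receptor that can carry heparan sulfate, rose 2.54-fold (limma adjusted p = 0.000444), and Cspg4, a transmembrane chondroitin sulfate proteoglycan, rose 1.91-fold (adjusted p = 0.00085). Betaglycan, Tgfbr3, a co-receptor for TGF-beta, fell 1.63-fold (adjusted p = 0.00134), and the basement membrane gene Col18a1 fell 1.33-fold (adjusted p = 0.00732, and 0.0619 without a background filter). Bcan fell 2.67-fold by the fit (adjusted p = 0.00426), with only 1 of 2 deletion-mutant arrays above background. Agrn fell by 0.27 (adjusted p = 0.0199), and its call was lost under median scaling, in the authors' matrix, without a background filter and without each array in turn (adjusted p = 0.0593 to 0.0938). Perlecan, Hspg2 (0.14, adjusted p = 0.198), and versican, Vcan (0.04, adjusted p = 0.562), did not pass. The glypican genes Gpc2 and Gpc5 had no probe above the filter.

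Proteins that bind the cytoplasmic tails of syndecans were the last list. By limma 4 of 10 measured genes rose, 0 fell and 6 did not pass. Of those 6, some had an unadjusted p under 0.05 in either direction. These were Cask and Nudt16l1 (log2 difference -0.23 each), Sdcbp2 (0.78) and Prkca (0.19). Other kept Cask probes gave -0.31 to -0.95. The share changed was 40%, beside 58.8% of all features. The share higher was 40%, beside 34.6%, and the share lower was 0%, beside 24.2%. The list's median was 0.23, beside 0.066. Ezr, which encodes ezrin, a linker between membrane proteins and actin, rose 4.28-fold, with log2 values of 0.14 and 0.17 in wild-type and 2.25 and 2.26 in deletion-mutant cells (adjusted p = 0.00021). Pdcd6ip (ALIX, a partner of syntenin in exosome release) rose by 0.72 on the log2 scale (adjusted p = 0.00215), Gipc1 (synectin) rose 1.57-fold (adjusted p = 0.00246) and Cttn (cortactin) rose 1.20-fold (adjusted p = 0.0184). The call of Cttn was lost under quantile normalization, with the percentile of the detected probes, without a background filter, without either wild-type array and without the first deletion-mutant array (adjusted p = 0.0793 to 0.0821). Sdcbp, which encodes syntenin itself, differed by 0.09 on its brightest probe (adjusted p = 0.245), and its other kept probe gave 0.37. With the percentile of the detected probes 3 rose and 2 fell. Under quantile normalization 4 rose and 2 fell, and with normexp background correction 6 rose and 2 fell.

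**Figure D4:**
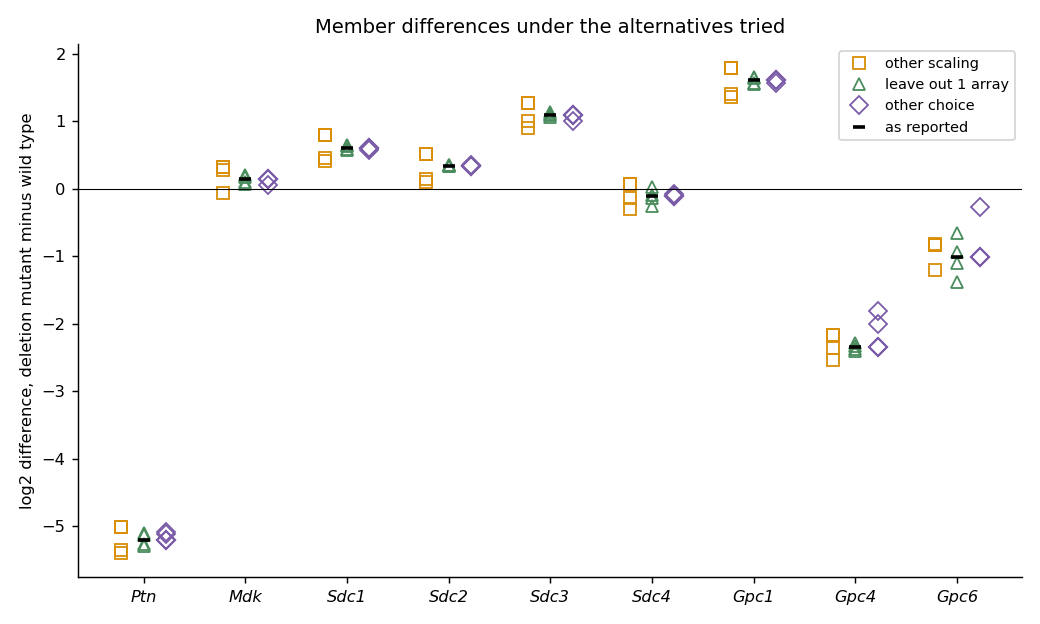
Log2 difference between deletion-mutant and wild-type cells (vertical axis) of the 9 tested members as reported (black bars) and under other scalings, with 1 array left out, and under other choices of background, filter, variance model and probes. Ptn stays between -5.39 and -5.01 and Gpc4 between -2.54 and -1.81, whereas the points of Mdk and Sdc4 lie on both sides of 0.

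Upstream sequence was on hand for 6 of the 10 members, from RefSeq on GRCm38.p6, and the 250 bases before the annotated start were searched on both strands for 6 short motifs. The GC box bound by SP1 was searched as GGGCGG and the CCAAT box by its name. The TATA box was written TATAAA, the AP-1 site was written TGANTCA, the E box was written CACGTG and the ETS site was written CCGGAAG. They are shown for Ptn and Gpc4, which were lower, and Sdc3, which was higher, with matches in capitals and no letter shared between matches.
Ptn, chr6:36810180-36810429, minus strand: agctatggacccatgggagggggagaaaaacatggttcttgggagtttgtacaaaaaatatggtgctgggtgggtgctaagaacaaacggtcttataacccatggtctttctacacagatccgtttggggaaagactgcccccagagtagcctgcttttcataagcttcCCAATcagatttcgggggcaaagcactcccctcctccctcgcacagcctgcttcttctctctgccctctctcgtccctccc
Gpc4, chrX:52164924-52165173, minus strand: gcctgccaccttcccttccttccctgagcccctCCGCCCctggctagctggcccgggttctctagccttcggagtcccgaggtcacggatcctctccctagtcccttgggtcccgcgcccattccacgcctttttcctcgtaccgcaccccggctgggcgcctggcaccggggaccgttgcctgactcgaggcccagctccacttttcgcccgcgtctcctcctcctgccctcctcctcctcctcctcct
Sdc3, chr4:130792287-130792536, plus strand: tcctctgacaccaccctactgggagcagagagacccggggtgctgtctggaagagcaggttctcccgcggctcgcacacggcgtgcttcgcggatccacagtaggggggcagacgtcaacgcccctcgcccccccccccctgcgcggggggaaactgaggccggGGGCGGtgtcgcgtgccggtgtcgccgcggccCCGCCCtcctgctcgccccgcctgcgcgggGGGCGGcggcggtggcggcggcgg

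The Ptn window held 52% G and C, close to the median of all promoters in the table (52.4%), while the windows of Sdc1 (66%), Sdc3 (76.4%), Sdc4 (68%), Gpc3 (71.6%) and Gpc4 (68.4%) were richer. The GC box was not found in the Ptn window and occurred 1 to 4 times in each of the other 5, and 32.7% of all 32851 windows held it. The Ptn, Sdc1 and Gpc3 windows each held 1 CCAAT match, a motif found in 33.8% of all windows. TATAAA (12.4% of all windows), the AP-1 site (6.75%), the E box (6.02%) and the ETS site (6.91%) were found in none of the 6 windows. These matches describe the letters only.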

How the data were processed

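Cy3-labelled cRNA was hybridised to 1-colour Agilent arrays, per the labels' protocols. Per the file headers, the scanner software was Feature Extraction 10.10.1.1 (protocol GE1_1010_Sep10), with coordinates on mm9. The deposited processed signal is an intensity that the authors' scanner software had background-subtracted and detrended. Other deposited columns hold flags of 0 or 1. The authors' deposited log2 matrix differed from the log2 of this signal only by an offset for each array (to within 0.01 for 100% of probes).

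Spots marked as uneven or outliers were left out, and the 75th percentile of each array was subtracted in log2. Of 55681 probes, 25162 were kept, those flagged as well above background throughout 1 group or the other, and each gene was represented by its brightest. Groups were compared with limma 3.58.1 in R 4.3.3 (Benjamini-Hochberg over 18093 features, threshold 0.05; prior degrees of freedom 2.18), after a test on simulated data. Motifs and figures used Python 3.11.15, pandas 2.3.3 and matplotlib 3.10.9. All 10 members matched RefSeq symbols. No annotation of mm9 was used here, so exon or untranslated positions of probes were not computed, and statements on coding position rest on general knowledge of the transcripts.

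Members and lists were chosen with earlier results of these data known. All members were named, with the up to 4 called genes per list that changed most (or 2 per direction where at least 3 went each way), all genes of counts of 5 or fewer, and the 5 most similar features for 2 members. Other genes were named after their values were seen. The number of arrays limits the precision.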

Additional observations from a re-analysis of the deposited data

How the results depend on the processing

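Ptn, Sdc1, Sdc3, Gpc1 and Gpc4 kept their direction and passed under all 14 alternatives. The number of members that passed was 8 under median scaling. It was 6 with normexp, quantile normalization, the percentile of the detected probes, no background filter or the filter on all 4 arrays. The share of all features that passed was 65.4% under median scaling and 18.6% without a background filter, where all 10 members were tested. Nothing is read from these member counts. The same genes were not always involved, since Mdk entered under quantile and median scaling and Gpc3 without a background filter (-2.15, log2). That Gpc3 probe was well above background on the first wild-type array only, so -2.15 is not a measured size.

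All features called were 6466 without the filter, where 34816 features were tested, and 7815 to 9561 without 1 array. A fit without 1 array takes the lone array's spread from the other group. Synthesis genes that rose numbered 18 under median scaling and in the authors' matrix and 3 without the filter, and 4 fell with the percentile of the detected probes. Remodelling genes that rose fell to 1 under quantile normalization, the percentile of the detected probes and no filter. Receptor genes lower were 5 under quantile normalization and the percentile of the detected probes, and 5 were higher under median scaling and in the authors' matrix. Other cores higher were 4 under the latter pair, and 2 were lower without the filter. Syndecan partners higher were 7 under that pair. Partners lower were 2 under normexp, quantile normalization, the percentile of the detected probes and the intensity trend, 1 with the filter on all 4 arrays or the mean of a gene's probes, and 0 to 2 without 1 array. The cause was not tested. Median scaling moved the median of all features from 0.066 to 0.25 and the percentile of the detected probes moved it to -0.13, and of the features called 58.9%, 73.5% and 38.9% were higher in that order.

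Same-numbered arrays of the 2 groups shared a row of the slide. The differences between the 2 arrays of a group were nearly uncorrelated between groups (correlation 0.047). With 1 such difference per group this cannot exclude a pairing, and whether the numbers pair preparations was not tested. With the replicate block 9990 features and 7 members passed.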

Other observations

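Gpc4 and Gpc3 are next to each other on chromosome X in the gene order of RefSeq, and the sulfotransferase gene Hs6st2 lies 3 protein-coding genes before Gpc4. This neighbourhood was looked at after the values were seen. Of 14 protein-coding genes from 6 before Gpc4 to 6 after Gpc3, 6 were tested. Gpc4 (5.09-fold) and Hs6st2 (1.88-fold) were lower in deletion-mutant cells. On the other side, Phf6 was 1.61-fold higher (limma adjusted p = 0.00377), Hprt 1.73-fold (adjusted p = 0.00103) and Plac1, a gene of placenta, 2.42-fold (adjusted p = 0.000795), and Fam122b did not pass (-0.27, log2, adjusted p = 0.053). The region therefore did not move in 1 direction.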
